A study of Mus musculus with 16 samples.

Results

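The nuclear genes for the subunits of respiratory complex I were examined in gastrocnemius muscle of HSALR and control mice given vehicle or AICAR. The members were every gene of the deposited table whose symbol starts with Ndufa, Ndufb, Ndufc, Ndufs or Ndufv and a digit, together with Ndufab1, without the Ndufaf assembly factors and the entries marked as pseudogenes, and with a mean of at least 50 counts over the 16 libraries. This gave 38 of the 24454 genes of the table, and all 38 also passed the filter on low counts. Ndufb1 and the subunits encoded by mitochondrial DNA were not analysed here. The rule used names and abundance only, not the response to genotype or treatment.

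The 4 groups were FVB mice given vehicle (n = 3), FVB mice given AICAR (n = 3), HSALR mice given vehicle (n = 5) and HSALR mice given AICAR (n = 5), all 3 months old, those given vehicle being labelled CTRL. HSALR mice are a model of myotonic dystrophy type I on the FVB background that carry a human skeletal actin transgene with an expanded CTG repeat. The study used one homozygous line in which the transgene is expressed in skeletal muscle alone, so other tissues of the disease are not modelled. AICAR, which cells convert into an AMP analogue that activates AMP-activated protein kinase, was given at 500 mg/kg for 7 days, and each library came from the muscle of one mouse.

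Complex I is the first and largest enzyme of the mitochondrial respiratory chain. It takes electrons from NADH, passes them along a flavin and a row of iron-sulphur clusters to ubiquinone, and pumps protons across the inner membrane. The matrix arm holds the electron input module and the quinone module, which together contain the nuclear core subunits, and the membrane arm holds the proton pumps, which are encoded in mitochondrial DNA. The remaining nuclear subunits are accessory and surround both arms. In muscle the complex is most abundant in oxidative fibres, and AMP-activated protein kinase and the coactivator Ppargc1a are known for raising mitochondrial gene expression.

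The libraries held from 64890014 to 81987726 counts (median 73021286), and the members took between 0.710% and 0.919% of them. Muscle markers were abundant in all 16 libraries, with a summed level of 5 genes of 83587 to 107399 normalized CPM. Epidermal markers stood apart: Krt14, a keratin of the skin, was above 1 CPM in 6 libraries, namely 1 of 3 FVB mice given vehicle, 4 of 5 HSALR mice given vehicle, 1 of 3 FVB mice given AICAR and none of 5 HSALR mice given AICAR. Erythroid markers, summed over 5 genes, were between 273 and 3122 CPM, with the highest values in S446 (FVB) and S458 (HSALR), both given vehicle. No pair of libraries of a group agreed within sampling noise.

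Levels differed widely among the members when compared per length of gene. In FVB mice given vehicle, Ndufa4, first described as a complex I subunit and now assigned to cytochrome c oxidase, had the highest level at 856 ± 65.9 normalized RPKM (mean ± SD, n = 3), where RPKM is the normalized CPM, a count scaled to a common library size, divided by the gene length in kilobases. Ndufb8, an accessory subunit of the membrane arm, followed at 688 ± 32.9 and Ndufb9, another membrane arm subunit, at 544 ± 34.6. At the other end stood Ndufa11, an accessory subunit of the membrane arm, at 36.6 ± 1.99, Ndufa4l2, the paralog of Ndufa4 known for its induction in hypoxia, at 6.57 ± 0.235, and Ndufs5 at 1.54 ± 0.0551. These ranks depend on the deposited gene lengths, and that of Ndufa11 is 2661 bases, although its transcripts in the reference used here hold only 1103 different stretches of 50 bases. The mean values of Ndufa4, Ndufb8 and Ndufb9 were separated by more than the sum of their SDs.

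The Ndufs5 value is uncertain. Ndufs5 received 0.754 to 0.803 normalized CPM in FVB mice given vehicle, while the entry Ndufs5-ps, a processed pseudogene that the member rule leaves out, received 106 to 119. Over all 16 mice, Ndufs5 held between 0.463% and 0.780% of the counts of the pair. Of the 50-base stretches of the Ndufs5 transcripts, 21.7% also occur in the pseudogene, and how reads were divided between both entries was not tested. Stretches shared with other genes made up 37.0% for Ndufb4, 35.8% for Ndufs3, 26.2% for Ndufa12, 23.4% for Ndufb9, 9.5% each for Ndufab1 and Ndufb11, 8.6% for Ndufs6 and 6.7% for Ndufb3, so the values of these genes are uncertain by the reads that could have been placed elsewhere. With Ndufs5 these are the 9 members with shares of 5% or more, and 7 had smaller shares. Ndufa1, Ndufa2, Ndufa10, Ndufa13, Ndufa4l2, Ndufa9, Ndufb11, Ndufs1, Ndufs7 and Ndufv2 overlap another annotated gene, and whether counting used the strand is not given in the sources used here.

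**Figure D1:**
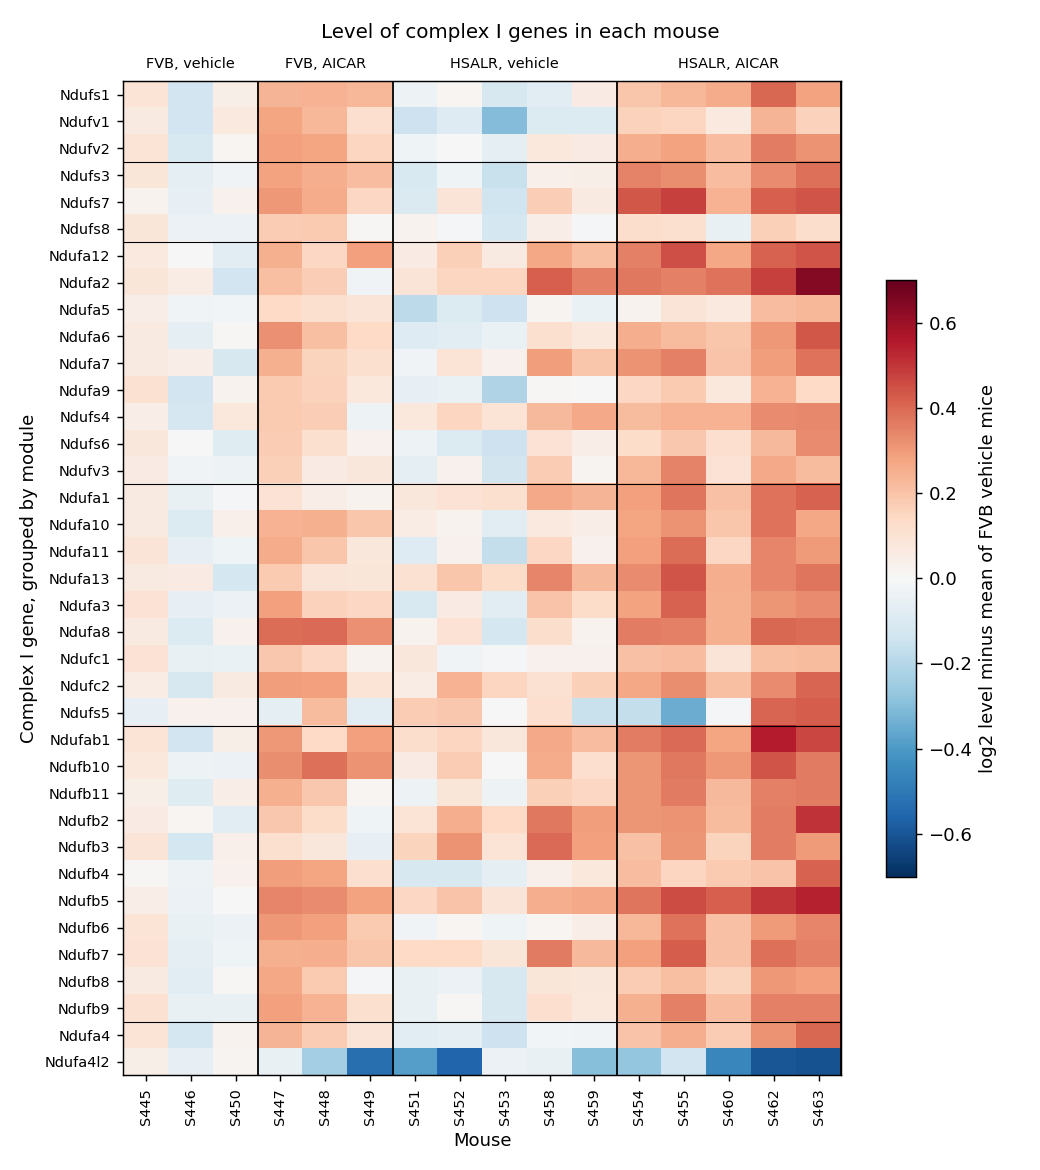
Level of 37 of the complex I genes (rows, grouped by module) in each of the 16 mice (columns, grouped by genotype and treatment), as log2 normalized CPM minus the mean of the 3 FVB mice given vehicle; red is higher and blue lower. Most rows are red in both AICAR groups, and the rows of Ndufa4l2, Ndufs5 and Ndufb3 differ from the others.

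The first comparison asked how AICAR changed complex I transcripts in HSALR muscle. Of the 38 members, 29 rose in HSALR mice given AICAR compared with HSALR mice given vehicle, and none fell (edgeR quasi-likelihood test, Benjamini-Hochberg adjusted p under 0.05 over all 15487 genes tested). Among all tested genes, 13.7% passed the test upward and 13.0% downward. The median log2 fold change of the members was 0.24, and that of all tested genes was -0.02. Of the members, 37 had a positive and 1 a negative log2 fold change, and the count of members lower at an unadjusted p under 0.05 was also 0. DESeq2 called 31 members higher and limma voom 29, and neither called any lower. In 25 of the 38 members every HSALR mouse given AICAR was above every HSALR mouse given vehicle, or 65.8%, compared with 10.2% of all tested genes.

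In the quinone module, which hands electrons to ubiquinone, the core subunits Ndufs7 and Ndufs3 rose. Ndufs7, which carries the last iron-sulphur cluster before ubiquinone, had 220.3, 252, 215, 266 and 247 CPM in the 5 HSALR mice given vehicle. With AICAR the values were 320.1, 330.0, 280.4, 316 and 321 CPM. The groups did not overlap, although 1 treated mouse (S460) lay well below the other treated mice, and the log2 fold change was 0.39 (SE 0.064, adjusted p = 0.000559). Ndufs3, a core subunit of the matrix arm near the quinone site, had 156, 164, 151, 172 and 172 CPM with vehicle. The values with AICAR were 213, 210.2, 195, 211 and 219 CPM, all above the vehicle mice, with a log2 fold change of 0.36 (SE 0.050, adjusted p = 0.000121). Ndufs8, a further iron-sulphur subunit of this module, did not pass, at 122 ± 5.42 and 132 ± 7.40 CPM (mean ± SD, n = 5 each) and a log2 fold change of 0.11 (SE 0.053, adjusted p = 0.143).

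All 3 core subunits of the electron input module rose. Ndufv1, which binds NADH and the flavin, had 382, 395, 342, 394 and 394 CPM with vehicle. With AICAR it had 471, 468, 441, 497 and 471 CPM, so that the lowest treated mouse stood above the highest vehicle mouse, and the log2 fold change was 0.30 (SE 0.058, adjusted p = 0.00152). Ndufs1, the largest subunit of the matrix arm and carrier of several iron-sulphur clusters, had 623, 644, 589.6, 608 and 664 CPM with vehicle and 732, 751, 765, 843 and 777 CPM with AICAR. Again the groups did not overlap, and the log2 fold change was 0.31 (SE 0.054, adjusted p = 0.000861). Ndufv2, which carries a further iron-sulphur cluster, went from 308 ± 12.5 to 373 ± 14.3 CPM (mean ± SD, n = 5 each), with a log2 fold change of 0.28 (SE 0.050, adjusted p = 0.000974).

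Among the accessory subunits, 7 of 9 of the matrix arm, 7 of 9 of the proximal membrane arm and 8 of 11 of the distal membrane arm rose. Their median log2 fold changes were 0.22, 0.17 and 0.25, respectively. The largest change in the membrane arm was that of Ndufa8, an intermembrane space subunit, with 168, 177, 152, 179 and 168 CPM under vehicle and 211, 211, 196, 218 and 216 CPM under AICAR. The log2 fold change was 0.32 (SE 0.052, adjusted p = 0.000491) and no treated mouse overlapped a vehicle mouse. Ndufab1, the mitochondrial acyl carrier protein, which also serves fatty acid synthesis, rose by a log2 fold change of 0.25 (SE 0.061, adjusted p = 0.00805), from 42.6 ± 2.20 to 50.6 ± 3.69 CPM. Ndufa4 had 399, 400.4, 381, 414 and 414 CPM with vehicle and 483, 501, 476, 522 and 554 CPM with AICAR, with a log2 fold change of 0.34 (SE 0.056, adjusted p = 0.000523). Its paralog Ndufa4l2 was the single member with a negative value, -0.15 (SE 0.12, adjusted p = 0.402), at 4.31 to 6.17 CPM with vehicle and 4.14 to 5.77 CPM with AICAR, ranges that overlap.

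The 9 members that did not pass were Ndufa13, Ndufa2, Ndufa4l2, Ndufb2, Ndufb3, Ndufb7, Ndufs4, Ndufs5 and Ndufs8. Ndufa13 and Ndufa2 missed the threshold narrowly, with adjusted p = 0.0601 and 0.06. Ndufb3 had the log2 fold change nearest to 0, 0.01 (SE 0.065, adjusted p = 0.914), with 97.9, 109, 93.8, 116 and 107 CPM under vehicle and 101, 109, 97.9, 113 and 108 CPM under AICAR. For this distal membrane arm subunit both groups covered nearly the same range.

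Markers of other cell types moved together with this comparison, the epidermal ones most. The summed level of 8 epidermal genes was 0.612 to 187 CPM in HSALR mice given vehicle and 0.242 to 0.371 CPM in HSALR mice given AICAR, all 8 passed the test as lower, and Dsg1a and Flg2 were at 0 in all 5 treated mice. Of 4 macrophage markers, Cd14, a receptor for bacterial lipopolysaccharide, was higher with a log2 fold change of 1.26 (adjusted p = 6.52e-06) and Csf1r lower with -0.32 (adjusted p = 0.0468), while the summed level of the list was 58.1 to 72.9 CPM with vehicle and 52.8 to 78.0 CPM with AICAR. Of 3 endothelial markers Pecam1 was higher with 0.31 (adjusted p = 0.00312), and the sums were 137 to 182 and 170.0 to 185 CPM. Of 5 muscle markers Pvalb, a calcium buffer of fast fibres, was lower with -0.73 (adjusted p = 0.000608). The part of these cells in the member values was not tested. With an epidermal marker score in the model 20 of the 29 calls remained, and the median of the members was 0.23. The HSALR mouse S451, the only one given vehicle with Krt14 at or below 1 CPM, had a summed member level of 7399 CPM, below all 5 HSALR mice given AICAR. Keeping only libraries with Krt14 at or below 1 CPM, a choice made after seeing the data that leaves this 1 vehicle library, gave 3 calls with a median of 0.30. Scaling by library size alone gave 16 calls with a median of 0.16, where the median of all genes was -0.10. None of 4 myosin genes that mark fibre types passed with AICAR in HSALR mice, nor at an unadjusted p under 0.05, with log2 fold changes for Myh7, the slow oxidative form, of -0.12 (adjusted p = 0.815), for Myh2 (IIa) of -0.11 (adjusted p = 0.663), for Myh1 (IIx) of 0.33 (adjusted p = 0.132) and for Myh4 (IIb) of 0.03 (adjusted p = 0.915). In bulk muscle, a different share of cells or fibres and a different amount of complex I transcript in each cannot be told apart.

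**Figure D2:**
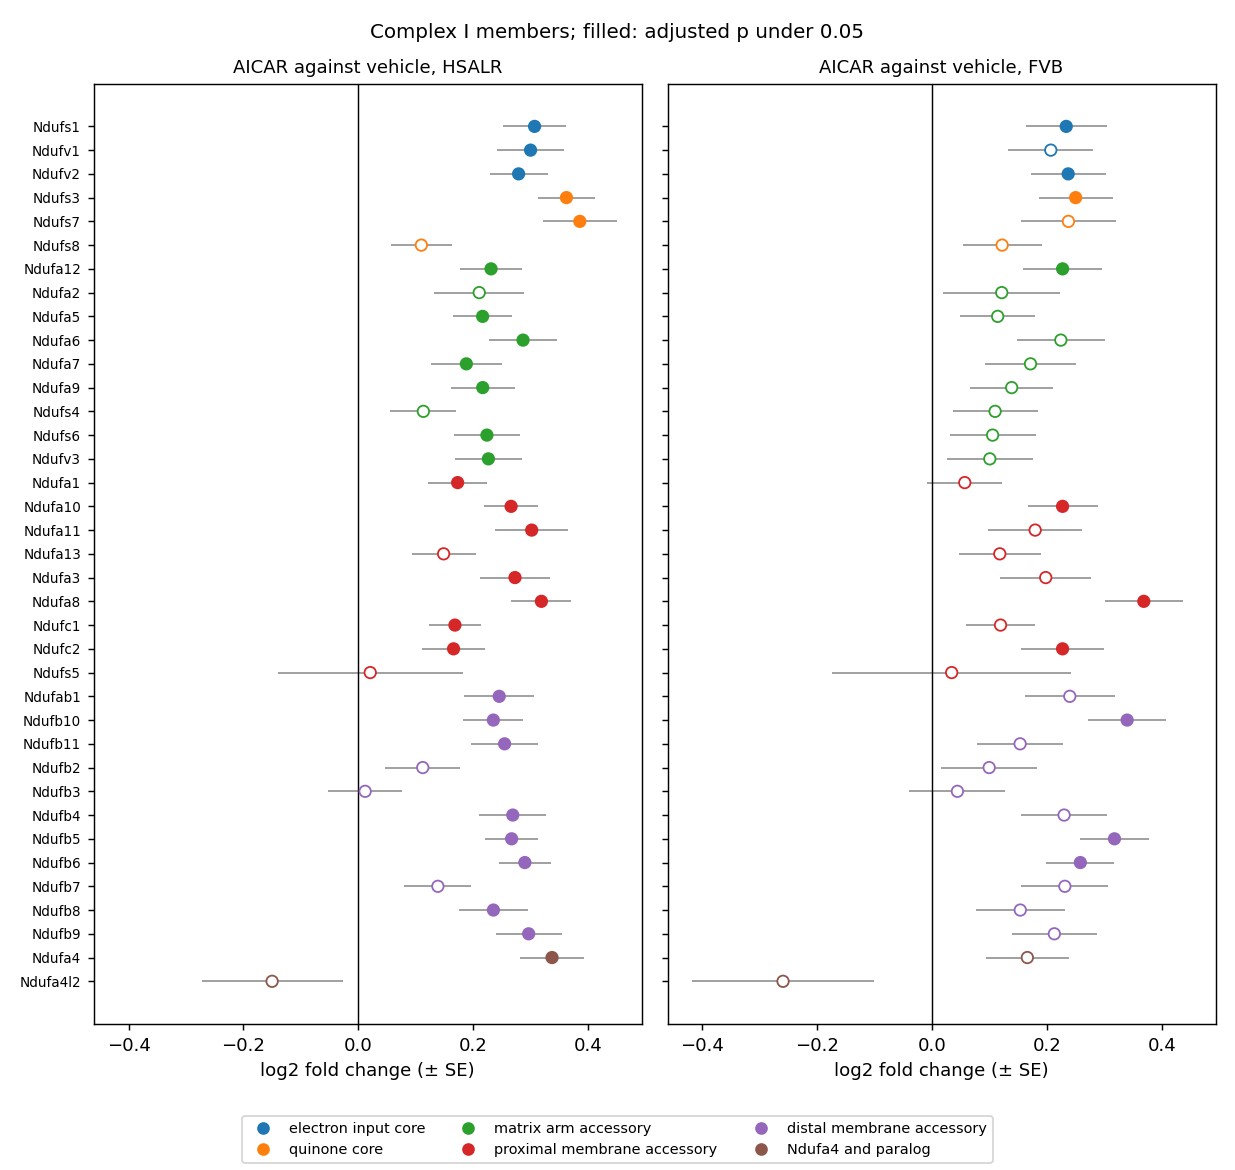
Log2 fold change (point) and its standard error (bar) for 37 complex I genes, AICAR against vehicle, in HSALR mice (left) and FVB mice (right); colours give the module and filled points passed the test. All points but Ndufa4l2 lie to the right of 0 in both panels, 28 being filled on the left and 10 on the right.

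The second comparison asked the same of control muscle. Compared with FVB mice given vehicle, 11 of 38 members rose and none fell, while 8.40% of all tested genes passed upward and 4.77% downward. No member was lower at an unadjusted p under 0.05. The median log2 fold change of the members was 0.19 and that of all genes -0.01. With 3 mice a group, 22 members, or 57.9%, had every treated mouse above every vehicle mouse, against 18.1% of all tested genes. DESeq2 called 18 members higher and none lower.

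Ndufa8 had the largest change in FVB mice, with 173, 154 and 169 CPM under vehicle and 217, 217 and 206 CPM under AICAR. The log2 fold change was 0.37 (SE 0.068, adjusted p = 0.00268). Ndufb10, a membrane arm subunit that faces the intermembrane space, had 216, 200.2 and 199 CPM with vehicle and 257, 267 and 254 CPM with AICAR, a log2 fold change of 0.34 (SE 0.068, adjusted p = 0.00449). Ndufb5, an accessory subunit of the distal membrane arm, had 359, 339 and 348 CPM with vehicle and 442, 438 and 424 CPM with AICAR, a log2 fold change of 0.32 (SE 0.060, adjusted p = 0.00342). In each of these 3 genes the lowest treated mouse stood above the highest vehicle mouse. Ndufb6, a neighbour in the membrane arm, rose by 0.26 (SE 0.059, adjusted p = 0.00994).

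The core subunits Ndufs3, Ndufs1 and Ndufv2 rose in FVB mice. Ndufs3 had 178, 161 and 165 CPM with vehicle and 204, 200.1 and 195 CPM with AICAR, with every treated mouse above every vehicle mouse and a log2 fold change of 0.25 (SE 0.064, adjusted p = 0.0187). The log2 fold changes of Ndufs1 and Ndufv2 were 0.23 (adjusted p = 0.0397) and 0.24 (adjusted p = 0.026), respectively. Ndufs7 and Ndufv1 gave 0.24 (adjusted p = 0.0718) and 0.21 (adjusted p = 0.0791) and did not pass, nor did Ndufs8 at 0.12 (adjusted p = 0.261). Ndufa10, Ndufa12 and Ndufc2, accessory subunits of the proximal membrane arm and the matrix arm, also rose. Ndufa4 at 0.17 (adjusted p = 0.142), Ndufab1 at 0.24 (adjusted p = 0.0559) and Ndufa4l2 at -0.26 (adjusted p = 0.301) did not pass.

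Among the markers of other cell types, Cd14 was higher in FVB mice given AICAR with a log2 fold change of 1.32 (adjusted p = 0.000147), and no other marker of macrophages, endothelium, muscle or epidermis passed. All 5 erythroid markers had negative log2 fold changes, with a median of -1.35, and none passed. Their summed level was 1219 to 3122 CPM with vehicle and 514 to 865 CPM with AICAR. The 4 myosin genes did not pass either, with log2 fold changes for Myh7 of -0.82 (adjusted p = 0.214), for Myh2 of -0.39 (adjusted p = 0.245), for Myh1 of 0.35 (adjusted p = 0.27) and for Myh4 of 0.35 (adjusted p = 0.288).

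The count of 11 members depended on single mice. Without the FVB mouse S446 given vehicle 4 members were called, without S450 6, and without the AICAR-treated S447 or S448 5 and 4, respectively. Scaling by library size or by the upper quartile gave 3 calls each, and fitting both FVB groups alone gave 3. The median of the members was between 0.13 and 0.18 in these 7 fits.

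All 11 members called in FVB mice were among the 29 called in HSALR mice, that is 37.9% of the latter and 100% of the former. The same overlap over all tested genes was not counted, so whether it is particular to the members was not tested. The 2 comparisons use different mice. The difference between the AICAR effects was tested as an interaction. None of the 38 members passed in either direction, with 0 at an unadjusted p under 0.05, while 0.207% of all tested genes passed as more positive in HSALR and 0.484% as more negative. DESeq2, limma voom and the likelihood ratio test also called none. The median of the members was 0.06 and that of all genes -0.01. The interaction estimates were between -0.10 and 0.17, with Ndufa4 at 0.17 (SE 0.091, adjusted p = 0.392) the highest and Ndufb10 at -0.10 (SE 0.085, adjusted p = 0.601) the lowest.

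Summed over the 38 members, the level was 7902, 7128 and 7504 CPM in FVB mice given vehicle and 8962, 8753 and 8263 CPM in FVB mice given AICAR. HSALR mice had 7399, 7670.0, 7125, 8073 and 7950.3 CPM with vehicle and 8957, 9237, 8617, 9522 and 9449 CPM with AICAR. With TMM scaling, the lowest treated mouse lay above the highest vehicle mouse in both genotypes, and S460 was the lowest of the HSALR mice given AICAR. The group means were 7511 ± 387, 8659 ± 358, 7643 ± 389.8 and 9156 ± 373 CPM (± SD) in the same order. As a share of unscaled counts, the members took 0.7485% in the treated FVB mouse S449. The FVB vehicle mice S445 and S450 had higher shares, 0.7963% and 0.7852%. S449 had the lowest scaling factor of the 16 libraries, 0.906. In HSALR mice the lowest treated share, 0.8491% in S460, was above the highest vehicle share, 0.8413% in S458.

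**Figure D3:**
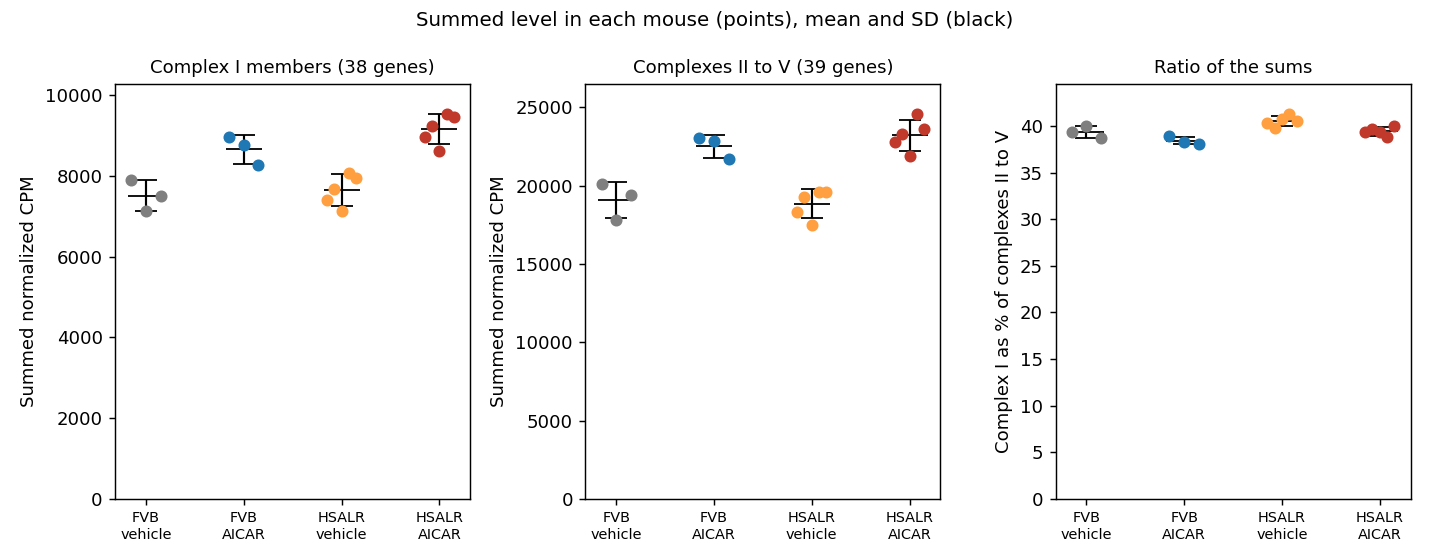
Summed normalized CPM of the 38 complex I genes (left), of 39 genes of complexes II to V (middle) and the first as percent of the second (right); points are mice, black marks are means with SD, and all axes start at 0. Both sums are higher in the AICAR groups, while the ratio lies between 38.1% and 41.2% in all 16 mice. Ndufa4 is counted in the left sum.

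Genes of the other complexes of oxidative phosphorylation also rose. With AICAR in HSALR mice, 2 of 4 genes of complex II, 9 of 9 of complex III, 10 of 11 of complex IV and 12 of 15 of complex V rose and none fell, with a median of 0.29 over the 39 genes. The largest changes were those of Atp5g1, a gene for the membrane ring of ATP synthase, at 0.61 (SE 0.056, adjusted p = 3.32e-06), and Cox7a1, the muscle form of a cytochrome c oxidase subunit, at 0.50 (SE 0.068, adjusted p = 0.000123). Cyc1, the cytochrome c1 of complex III, rose by 0.36 (adjusted p = 0.000503), and Sdha, the flavoprotein of complex II, by 0.31 (adjusted p = 0.001). In FVB mice 16 of the 39 genes rose and none fell, with a median of 0.22 and with Atp5g1 again in front at 0.53 (SE 0.072, adjusted p = 0.000387). Cox5a and Sdhd, subunits of complexes IV and II, followed at 0.39 (adjusted p = 0.00257) and 0.34 (adjusted p = 0.00477). In these sums Ndufa4, now assigned to cytochrome c oxidase, was counted with complex I by the member rule. It had a mean of 421 CPM in FVB mice given vehicle. The complex I sum was 39.3, 39.98 and 38.7% of the sum over complexes II to V in FVB mice given vehicle and 38.9, 38.3 and 38.1% in those given AICAR. In HSALR mice the ratio was 40.3, 39.8, 40.8, 41.2 and 40.5% with vehicle and 39.3, 39.7, 39.3, 38.8 and 39.97% with AICAR. The mean ratio was lower with AICAR in both genotypes, at 39.3 ± 0.626% with vehicle and 38.4 ± 0.410% with AICAR in FVB mice (± SD, n = 3 each) and 40.5 ± 0.548% and 39.4 ± 0.450% in HSALR mice (n = 5 each). In each genotype 1 treated mouse lay above the lowest vehicle mouse (S447 in FVB and S463 in HSALR mice), and the difference was not tested.

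Of 19 factors that assemble complex I without being part of it, 10 rose with AICAR in HSALR mice and 7 in FVB mice, and none passed as lower, with medians of 0.20 in both. In HSALR mice 4 had a negative value, of which Ndufaf5 at -0.15 and Dmac1 at -0.14 were lower at an unadjusted p under 0.05 (adjusted p = 0.095 and 0.101). In FVB mice 3 were negative and 0 were lower at an unadjusted p under 0.05. In HSALR mice the largest values were those of Tmem126a at 0.41 (SE 0.043, adjusted p = 1.17e-05) and Ndufaf1 at 0.37 (SE 0.055, adjusted p = 0.000224). In FVB mice they were those of Ndufaf4 at 0.60 (SE 0.11, adjusted p = 0.00204) and Ndufaf2 at 0.40 (SE 0.076, adjusted p = 0.00379).

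Regulators of mitochondrial biogenesis did not move as one group. Of 11 genes, 2 rose and 1 fell with AICAR in HSALR mice, with a median of -0.11, and 3 rose and 1 fell in FVB mice, with a median of -0.01. Ppargc1a, the coactivator that drives mitochondrial gene programmes, had 51.9, 86.0, 57.3, 40.6 and 43.7 CPM in HSALR mice given vehicle and 112, 110.4, 71.0, 80.6 and 92.4 CPM in those given AICAR, with a log2 fold change of 0.74 (SE 0.20, adjusted p = 0.0138). In FVB mice it had 52.6, 52.3 and 56.7 CPM with vehicle and 118, 171 and 222 CPM with AICAR, with a log2 fold change of 1.66 (SE 0.27, adjusted p = 0.00113). The interaction for Ppargc1a did not pass, at -0.92 (SE 0.33, adjusted p = 0.206). Esrra, an oestrogen-related receptor that acts with Ppargc1a, rose in both genotypes, with a log2 fold change of 0.20 (adjusted p = 0.0372) in HSALR and 0.28 (adjusted p = 0.0493) in FVB mice. Pprc1, a coactivator related to Ppargc1a, rose in FVB mice with 0.74 (adjusted p = 0.0206) and gave 0.08 (adjusted p = 0.725) in HSALR mice. Gabpb1, a subunit of the transcription factor GABP, fell in HSALR mice with a log2 fold change of -0.21 (adjusted p = 0.0296), and Esrrg, a further oestrogen-related receptor, fell in FVB mice with -0.83 (adjusted p = 0.0162). Tfam, which maintains mitochondrial DNA, did not pass in either genotype, at 0.04 and -0.06.

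Because most members had positive log2 fold changes with AICAR, the members' start sites were searched for motifs of factors known from mitochondrial genes. RefSeq start windows of GRCm38.p6, reaching from 250 bases before to 50 bases after the start, were matched for 33 of the 38 members. On both strands, GCGCATGCG (NRF1) occurred in 2 of 33 members, or 6.1%, and 1.95% of 27025 genes, TCAAGGTCA (oestrogen-related receptors) in 0 of 33 and 0.466%, CCGGAAG (ETS factors such as GABP) in 4 of 33, or 12.1%, and 9.93%, and AAGATGGC (YY1) in 7 of 33, or 21.2%, and 3.19%. The NRF1 matches lie 60 bases before the start of Ndufa11, where the letters overlap their own reverse complement, and 9 bases before the start of Ndufa8, on the opposite strand. Both stretches are read along the transcript with the matched letters in capitals, and lie at chr17:56717677-56717736 (plus strand) and chr2:36049313-36049372 (minus strand).
Ndufa11: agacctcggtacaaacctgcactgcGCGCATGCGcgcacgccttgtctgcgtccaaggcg
Ndufa8: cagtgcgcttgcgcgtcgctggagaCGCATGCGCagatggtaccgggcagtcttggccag

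All 7 YY1 matches lie on the coding strand 23 to 39 bases after the start, and in all 7 the ATG within the motif is the annotated start codon of the subunit. Of the 927 matches in all windows, 284 or 30.6% lie on that strand after the start. The 27025 genes were not filtered for protein-coding genes, and a share among coding genes alone was not computed. The stretches are shown to let this shared position be seen, with the motif in capitals, each 30 bases long and read along the transcript, at chr13:114388048-114388077 (minus strand), chr13:73328438-73328467 (minus), chr7:3617377-3617406 (plus), chr6:126849104-126849133 (minus), chr3:51408922-51408951 (minus), chr19:44555393-44555422 (minus) and chr10:80249455-80249484 (plus), in the order of the genes.
Ndufs4: ctggcgtttgcctacaggAAGATGGCggcg
Ndufs6: gggtcaagggtcaccggcAAGATGGCggcg
Ndufa3: cttgtcgccgccaagaacAAGATGGCcggg
Ndufa9: cgtgaggcattgtgggagAAGATGGCggcc
Ndufc1: aggcggagcctgcggaacAAGATGGCgccg
Ndufb8: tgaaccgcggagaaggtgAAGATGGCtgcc
Ndufs7: tgtctgaaggccgaggccAAGATGGCggcg

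Among these 7 genes, Ndufs7 had the largest log2 fold change with AICAR in HSALR mice, 0.39, and Ndufs4 the smallest, 0.11. The values of Ndufa3, Ndufb8, Ndufs6, Ndufa9 and Ndufc1 were 0.27, 0.24, 0.22, 0.22 and 0.17. All 38 members ranged from -0.15 to 0.39.

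Between genotypes, few members differed. In mice given vehicle, 5 of 38 members were higher in HSALR than in FVB mice and none was lower, while 15.4% of all tested genes were higher and 11.5% lower, so that the share of members higher was close to that of all genes. The median of the members was 0.02 and that of all genes 0.01, with 24 positive and 14 negative values. At an unadjusted p under 0.05, 1 member was lower, Ndufv1 at -0.15 (SE 0.066, adjusted p = 0.117). DESeq2 and limma voom called 5 members higher each and none lower.

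The 5 higher members were Ndufb3, Ndufb2, Ndufb5, Ndufb7 and Ndufa13, of which the first 4 belong to the distal membrane arm and the last to the proximal membrane arm. Ndufb3 had 93.4, 80.7 and 90.004 CPM in FVB mice and 97.9, 109, 93.8, 116 and 107 CPM in HSALR mice given vehicle, with a log2 fold change of 0.25 (SE 0.075, adjusted p = 0.0214). Every HSALR mouse was above every FVB mouse. Ndufb2 had 127, 124 and 117 and 131, 146, 135, 158 and 150.1 CPM, likewise separate, with a log2 fold change of 0.23 (SE 0.076, adjusted p = 0.0332). Ndufb5 had 359, 339 and 348 and 386, 401, 371, 415 and 418 CPM, again without overlap, with a log2 fold change of 0.19 (SE 0.054, adjusted p = 0.0165). Ndufa13, also known as a cell death regulator, gave 0.20 (SE 0.065, adjusted p = 0.033), and Ndufb7, an intermembrane space subunit, gave 0.19 (SE 0.068, adjusted p = 0.048). None of the 7 core subunits passed, with values from -0.15 for Ndufv1 to 0.02 for Ndufs7.

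These genotype calls did not hold when a trend with gene length was taken out of each library. With that trend in the offsets no member was higher and 15 were lower in HSALR mice given vehicle, the median was -0.11, and 17 of the 38 members changed sign, among them Ndufb7, which went to -0.001. The members are short, from 349 to 2927 bases with a median of 744.5. With both vehicle groups fitted alone, or with only libraries at or below 1 CPM of Krt14, no member was called higher. The upper quartile scaling gave 2 calls and the epidermal score 3, and leaving out S446, S450, S452, S458, S459 or the AICAR-treated S448 gave 1 or 2. Without S446 1 member was called lower. In the AICAR comparisons the same length trend left 32 members higher in HSALR mice and 14 in FVB mice, and none lower. The shares of all tested genes that passed with the length trend were not counted. Whether these member counts differ from such shares was therefore not tested.

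**Figure D4:**
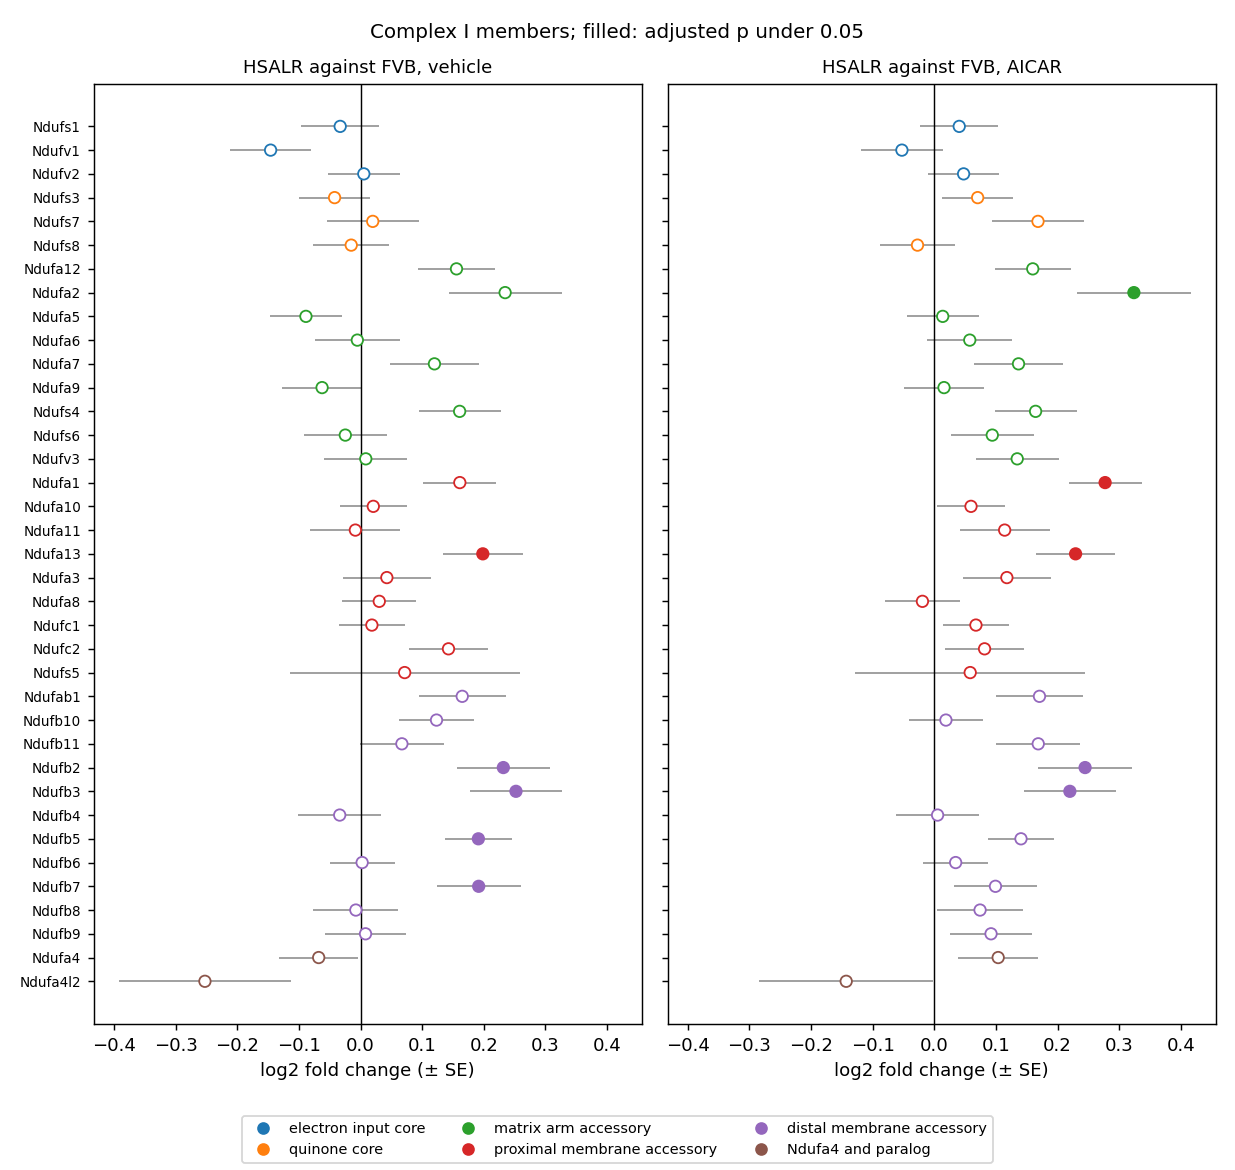
Log2 fold change (point) and its standard error (bar) for 37 complex I genes, HSALR against FVB mice, given vehicle (left) or AICAR (right); colours give the module and filled points passed the test. The points lie on both sides of 0 on the left, and 5 are filled in each panel.

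**Figure D5:**
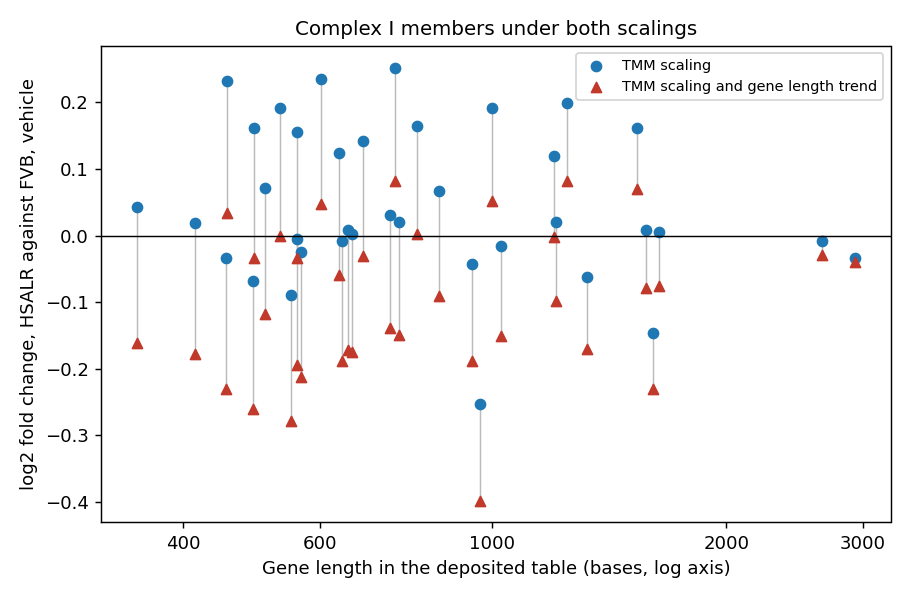
Log2 fold change of HSALR against FVB mice given vehicle for 37 members against gene length on a log axis, with the TMM scaling (blue circles) and with a gene length trend in addition (red triangles), joined by grey lines for each gene. All 37 genes shown move downward with the length trend, and the median of the 38 members goes from 0.02 to -0.11.

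After AICAR, 5 members were again higher in HSALR than in FVB mice and none lower, where 12.2% of all tested genes were higher and 9.64% lower, again a like share. No member was lower at an unadjusted p under 0.05, and DESeq2 and limma voom called none lower. The median of the members was 0.09 and that of all genes 0.004. Ndufa2, Ndufa1, Ndufb2, Ndufa13 and Ndufb3 passed. Ndufa2, an accessory subunit of the matrix arm, had 139.8, 136 and 119 CPM in FVB mice and 156, 154, 157, 168 and 189 CPM in HSALR mice, without overlap, and a log2 fold change of 0.32 (SE 0.092, adjusted p = 0.0206). Ndufa1, a small membrane arm subunit, had 75.1, 72.4 and 71.2 and 85.3, 90.8, 80.8, 91.2 and 93.4 CPM, also without overlap, and a log2 fold change of 0.28 (SE 0.059, adjusted p = 0.00407). Ndufb2, Ndufa13 and Ndufb3 gave 0.24 (adjusted p = 0.0311), 0.23 (adjusted p = 0.0201) and 0.22 (adjusted p = 0.0478), and these 3 are shared with the vehicle comparison, that is 60% of each list. The overlap of both comparisons over all tested genes was not counted. With the length trend none was called in either direction and the median was -0.05, and without the FVB mouse S449 1 was called.

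Myosin genes that mark fibre types also differed between genotypes. Myh1, the myosin of IIx fibres, had a log2 fold change of 1.52 (SE 0.19, adjusted p = 4.08e-05) in HSALR against FVB mice given vehicle, and Myh7, the myosin of slow oxidative fibres, had a log2 fold change of -1.37 (SE 0.36, adjusted p = 0.0113). Of complexes II to V, Sdha was lower at -0.26 (adjusted p = 0.007), as was Cox8b, a cytochrome c oxidase subunit of muscle, at -0.27 (adjusted p = 0.013). Uqcrfs1, the iron-sulphur protein of complex III, was higher at 0.22 (adjusted p = 0.0155), and Atp5k, a subunit of ATP synthase, at 0.26 (adjusted p = 0.0201), and no other of the 39 genes passed. Among assembly factors 2 were higher and 2 lower, led by Dmac1 at 0.33 (adjusted p = 0.0025) and Ndufaf5 at -0.24 (adjusted p = 0.0195). Of the 11 regulators, Esrrg was lower in HSALR mice given vehicle at -0.59 (adjusted p = 0.0251), and none was higher. After AICAR, 4 of the 39 genes of complexes II to V were higher and none was lower, namely Atp5k at 0.29 (adjusted p = 0.0136), Atp5h at 0.24 (adjusted p = 0.0318), Uqcrfs1 at 0.23 (adjusted p = 0.0158) and Atp5j at 0.17 (adjusted p = 0.0487). Whether the genotype calls of genes outside the members hold with the gene length trend was not tested. In the same comparison, 1 assembly factor was higher and 3 were lower in HSALR mice, the largest changes being those of Ndufaf5 at -0.34 (adjusted p = 0.0039) and Ndufaf4 at -0.30 (adjusted p = 0.0314). Of the 11 regulators, Ppargc1a at -0.87 (adjusted p = 0.0132), Pprc1 at -0.53 (adjusted p = 0.0366) and Esrra at -0.23 (adjusted p = 0.0454) were lower and none was higher. Of the myosin genes, Myh1 was again higher, at 1.499 (adjusted p = 7.82e-05), and Myh4, the myosin of IIb fibres, was lower at -0.67 (adjusted p = 0.0177).

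Markers of other cell types also differed between genotypes. All 3 endothelial markers were lower in HSALR than in FVB mice given vehicle, with summed levels of 137 to 182 and 208 to 234 CPM, and 2 of 4 macrophage markers were higher, with summed levels of 58.1 to 72.9 and 41.5 to 56.9 CPM. Of the 5 muscle markers Acta1, the mouse gene for skeletal actin, was higher with a log2 fold change of 0.31 (adjusted p = 0.00787). After AICAR, Cdh5 and Pecam1 of the endothelial markers were lower in HSALR mice, with log2 fold changes of -0.40 (adjusted p = 0.00288) and -0.34 (adjusted p = 0.00539), 5 of the 8 epidermal markers were lower, and Acta1 was again higher with 0.46 (adjusted p = 0.0008). The epidermal difference rested on 1 FVB mouse given AICAR, S448, with a summed level of 104 CPM. S447 and S449 of that group had 0.341 and 0.243 CPM, and the HSALR mice given AICAR had 0.242 to 0.371 CPM. None of 5 adipocyte and none of 5 erythroid markers passed in any of the 5 comparisons. The part of these cells in the member values was not tested.

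Across the 16 mice most members followed one another. As a description, the Pearson correlation of each member with the mean log2 level of the other members had a median of 0.90, and was above 0.9 for 19 and above 0.8 for 28 of 38. These 16 points share the 4 groups and the libraries, and so the correlation includes the differences between groups. Ndufa4l2 at -0.443, Ndufs5 at 0.107, Ndufb3 at 0.533 and Ndufb2 at 0.712 were the least alike. Outside complexes I to V, the genes most like the mean of the members over the 16 mice were Gm12338, annotated as a pseudogene, at r = 0.984, Idh3b, a subunit of the isocitrate dehydrogenase of the citric acid cycle, at 0.978, Ptges2 at 0.970, Micos13, a component of the complex that shapes mitochondrial cristae, at 0.967 and Stoml2, a protein of the inner mitochondrial membrane, at 0.958.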

How the data were processed

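Polyadenylated RNA of gastrocnemius muscle from 16 mice was sequenced as stranded single-end libraries. The authors mapped reads to mm10 with STAR 2.5.2a, placing a read with several equally good locations at 1 of them, and counted reads starting in RefSeq exons with QuasR, and the deposited counts per gene are raw, with the gene length in bases beside them. Groups came from the labels, which give a mouse for each library. Counts were tested with edgeR 4.0.16 (R 4.3.3) in one quasi-likelihood fit over all 4 groups, with TMM scaling, filterByExpr and Benjamini-Hochberg adjustment over 15487 genes at 0.05. Normalized CPM are counts scaled by the TMM library size. Fits were tested on simulated data. Genes named individually were the 7 nuclear core subunits, Ndufa4, Ndufa4l2, Ndufab1, the 5 largest called changes in each comparison and direction, the 3 highest and 3 lowest levels, the 2 largest called changes of each pathway list and the 5 genes most like the members. The values of 1 member, which stays in all counts, medians and sums, are not reported here. A few others are named for the count they belong to, Esrra, Pprc1, Dmac1, Atp5h, Atp5j, Csf1r, Tfam, the myosins, Krt14, Dsg1a, Flg2 and Ndufs5-ps among them, picked with their values known. The members and lists were chosen with earlier results of these data known. Alternatives were DESeq2 1.42.0, limma 3.58.1 voom, other scalings and filters, a gene length trend, an epidermal score and leaving out each mouse. Entrez identifiers matched RefSeq for 24374 genes and not for 80.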

Additional observations from a re-analysis of the deposited data

Results flagged for a closer look

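In groups of 5 mice, 52 sets of values of the named members and of their sums were screened for a mouse far from the rest, of which chance gives about 1 in 20, or 2.6, and 3 were found. Ndufs7 in the AICAR-treated HSALR mouse S460 was at 280.4 CPM, while the other 4 mice of its group were between 316 and 330.0 CPM. The same mouse had 119 CPM of Ndufs8, below the 133 to 138 CPM of the others. Among HSALR mice given vehicle, S453 had 342 CPM of Ndufv1, below the 382 to 395 CPM of the others. Without S460, 32 members were called higher with AICAR in HSALR mice, and without S453 26, compared with 29 in all mice. No member differed between genotypes in its response to AICAR by the interaction test.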

How the results depend on the processing

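Of the counts of members per comparison, 257 stayed within 1.5 times under an alternative and 31 did not, and of the log2 fold changes of each of the 38 members 5183 kept their side of the threshold, 237 lost and 47 gained a call, and 5 changed sign with a call before or after. With the gene length trend, HSALR against FVB mice given vehicle gave 0 members higher and 15 lower, HSALR against FVB mice given AICAR gave 0 higher, and 17 members changed sign between genotypes under vehicle, of which Ndufa3, Ndufb6, Ndufb9 and Ndufc1 were then called lower at -0.16, -0.17, -0.17 and -0.18 and Ndufb7 lost its call at -0.001. Under AICAR 18 members changed sign between genotypes with that trend, none with a call. Upper quartile scaling gave 2 higher for genotype under vehicle and 3 for AICAR in FVB mice. Library size scaling gave 16 for AICAR in HSALR mice, 3 for AICAR in FVB mice and 3 for genotype under AICAR. Fitting only the groups compared gave 0 for genotype under vehicle and 3 for AICAR in FVB mice. DESeq2 gave 18 for AICAR in FVB mice. The epidermal score gave 3 for genotype under vehicle. Keeping only libraries with Krt14 at or below 1 CPM, chosen after seeing the data, gave 0 and 2 for genotype under vehicle and AICAR, and 3 and 1 for AICAR in HSALR and FVB mice, with 10 libraries and 1 HSALR mouse given vehicle, which is assumed to vary like the other groups. Leaving out 1 mouse gave 1 to 6 higher and 0 to 1 lower for genotype under vehicle, 26 to 32 for AICAR in HSALR mice, 4 to 13 for AICAR in FVB mice and 1 to 7 for genotype under AICAR. For genotype under AICAR the counts that moved were without S448 (2), S449 (1), S462 (3) and S463 (3). Where fewer libraries were used, fewer mice carry the spread; for the scalings and covariates the cause was not tested. No paired analysis was possible because the groups share no replicate numbers. Ndufs5 and Ndufa4l2 had the lowest levels of the members and the largest standard errors.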
